A study of Mus musculus with 2 samples.

Results

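Genes that make, sense, move and dispose of cholesterol were examined in precancerous mouse liver with and without Kdm3a. The list held 31 genes, and each was represented by its brightest probe set, that is, the probe set with the highest mean of both arrays among those annotated to that gene alone. Of the 31, 29 had such a probe set, out of 11693 genes compared on the arrays. Acat2 and Soat2 had none in the annotation used here and are not analysed. All 29 probe sets passed the filter on low signal described with the processing, so no listed gene was lost to low signal. Further genes of the pathway outside the lists described here were not analysed.

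The samples were liver from mice that carried a Pik3ca transgene restricted to hepatocytes, given as Pik3caTg in the labels. Pik3ca encodes the catalytic subunit of phosphoinositide 3-kinase, and both groups carried the transgene. The control group was Pik3caTg;Kdm3aWT and the other was Pik3caTg;Kdm3aKO, a knockout of the histone demethylase gene Kdm3a. The promoter that drives the transgene, the tissues in which Kdm3a was deleted, the age, sex and strain of the mice, and whether RNA of several animals was pooled are not stated in the labels. The mice were kept on regular chow with a light and dark cycle of 12 h each. Each group had 1 expression array, so 2 arrays were compared, no test was possible, and no value carries an error between animals. The differences describe these arrays, not the genotypes.

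The liver makes cholesterol from acetyl-CoA. Acetyl units are joined into mevalonate, mevalonate is turned into isoprenoid units, these are linked into squalene, squalene is oxidised and closed into the sterol lanosterol, and lanosterol is trimmed and reduced to cholesterol. When membrane cholesterol is low, the carrier protein SCAP brings the membrane-bound factor SREBP-2 to the Golgi, where its active part is cut free and switches on most genes of the pathway; when sterols are plentiful, INSIG proteins hold SCAP back. Excess sterol, in the form of oxysterols, activates the nuclear receptor LXR, which switches on the export pumps. Hepatocytes use these to send cholesterol into bile and onto high-density lipoprotein particles (HDL).

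Promoter sequence was examined because most members are known as shared targets of SREBP-2, and because Abcg5 and Abcg8 lie head to head in the genome. RefSeq promoter windows of build GRCm38.p6 were found for 25 of the 31 genes, and the 250 bases before each start were searched on both strands for 5 motifs. Fdps, Fdft1, Sqle, Stard4, Soat2 and Scarb1 had no window and were not searched, so statements on motifs leave them out. In the stretches printed here, 5′ to 3′, capitals mark matches to TCACNCCAC (the sterol regulatory element, SRE, bound by SREBP), CCAAT (the box bound by NF-Y, a partner of SREBP) and CACGTG (the E-box), each on either strand. The genes shown are Hmgcs1, which alone held an SRE match; Tm7sf2 and Ebp, the members past 2-fold higher; Insig1, the member of the INSIG pair with the higher ratio; and the interval between the divergent starts of Abcg5 and Abcg8.
Hmgcs1 (chr13:119690101-119690350, plus strand): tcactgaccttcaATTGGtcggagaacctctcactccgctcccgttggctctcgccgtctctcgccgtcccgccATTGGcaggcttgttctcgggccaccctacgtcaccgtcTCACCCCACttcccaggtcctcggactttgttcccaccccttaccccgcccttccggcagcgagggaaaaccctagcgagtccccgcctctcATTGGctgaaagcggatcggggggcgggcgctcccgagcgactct
Tm7sf2 (chr19:6067851-6068100, minus strand): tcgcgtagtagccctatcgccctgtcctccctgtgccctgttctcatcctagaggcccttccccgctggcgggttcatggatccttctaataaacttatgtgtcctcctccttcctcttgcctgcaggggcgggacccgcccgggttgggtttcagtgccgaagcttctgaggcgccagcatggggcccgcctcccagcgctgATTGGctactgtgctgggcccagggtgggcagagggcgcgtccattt
Ebp (chrX:8193513-8193762, minus strand): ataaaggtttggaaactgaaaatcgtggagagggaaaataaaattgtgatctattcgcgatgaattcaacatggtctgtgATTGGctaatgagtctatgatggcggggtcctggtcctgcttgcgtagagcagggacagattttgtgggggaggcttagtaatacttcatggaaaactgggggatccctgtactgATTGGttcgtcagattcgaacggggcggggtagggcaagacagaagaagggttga
Insig1 (chr5:28071162-28071411, plus strand): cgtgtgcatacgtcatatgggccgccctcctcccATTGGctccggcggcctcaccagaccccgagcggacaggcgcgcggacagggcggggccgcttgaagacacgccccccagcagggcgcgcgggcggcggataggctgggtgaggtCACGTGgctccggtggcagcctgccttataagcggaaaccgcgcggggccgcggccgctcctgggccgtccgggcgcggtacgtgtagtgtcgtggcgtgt
Abcg5 to Abcg8 (chr17:84683012-84683120, plus strand): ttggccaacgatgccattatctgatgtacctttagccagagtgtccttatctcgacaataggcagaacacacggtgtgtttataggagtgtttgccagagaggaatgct

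Hmgcs1 held the letters TCACCCCAC from 137 to 129 bases before its start, besides 3 CCAAT boxes. An SRE match was present in 1 of 33 windows of member genes, against 1.05% of the 32851 windows in the table. CCAAT boxes were found in 20 of the 33 member windows (60.6%), against 33.8% of all windows and 34.6% of the 12173 windows of genes compared on the arrays. The nearest CCAAT box of Tm7sf2 lay 47 to 43 bases before its start and that of Ebp 55 to 51 bases. E-boxes were found in 6 of 33 member windows (18.2%) in 6.02% of all windows and in 8.26% of windows of genes compared. The GC-box letters GGGCGG, left in lower case, were found in 66.7% of member windows, 32.7% of all windows and 55.1% of windows of genes compared. The LXR element (DR4, searched as an exact direct repeat of its half-site with any 4 bases between) was in 0 member windows and in 5 of the 32851. In the member windows, no match overlapped a match to another motif. A match describes letters only, and windows of genes with several starts share a gene.

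The stretch between Abcg5 and Abcg8 was 109 bases long, with Abcg5 starting at position 84683011 on the minus strand and Abcg8 at 84683121 on the plus strand of chromosome 17. It held 0 matches to any of the 5 motifs. The Abcg8 window that spans it held 2 CCAAT boxes outside the stretch, 175 to 171 and 114 to 110 bases before the Abcg8 start. The nearer box directly adjoins the stretch at its Abcg5 end. The table gives Abcg8 a further start, inside the Abcg5 gene, at a window that is not printed.

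The arrays matched their labels at Kdm3a, which read 719.9 in control and 61.6 in knockout liver, though whether its probe set lies in the deleted part is not known here. Median signals of the arrays were 71.4 and 76.2. The ratio of 3′ to 5′ control probe sets, a sign of RNA integrity, was 0.701 and 0.654 for Gapdh and 1.85 and 1.99 for Actb in the wild-type and knockout arrays. Liver identity was evident in the hepatocyte markers, with all 8 among the genes compared and well above the floor on low signal of 46.5. Signals are MAS5 intensities in arbitrary units, which do not compare levels between genes. Ratios are log2 of the knockout over the wild-type signal, so a ratio of 1 is a difference of 2-fold.

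Most cholesterol genes had a higher signal in the knockout array, by amounts mostly under 2-fold. Of the 29 genes, 24 had a positive log2 ratio and 5 a negative ratio, whereas 47.8% of all genes compared had a positive ratio. Between 20 and 25 of the 29 were positive under the other scalings of the arrays. The 20 arose with hybridisation controls, where 36.2% of all genes were positive, and the 25 with poly-A controls, where 62.9% were. A second probe set above the filter was available for 12 members. Of these, 9 were positive by their brightest probe set and 6 by their second brightest, against 49.7% of the 4958 genes with a second one. The median ratio of the 29 was 0.39, with quartiles of 0.03 and 0.59, against -0.02 over all genes. Past 2-fold, 2 of 29 were higher (6.90%, against 3.83% of all genes compared) and 1 of 29 was lower (3.45%, against 8.96%). The higher genes were Tm7sf2 and Ebp, which act after lanosterol, and the lower gene was Sqle, the squalene epoxidase. The share past 2-fold in either direction, 10.3%, stood beside 12.8% of all genes. At 1.5-fold, 10 members were higher (11.1% of all genes were) and 2 were lower (17.4% of all genes were). This count depended on scaling, from 4 higher with hybridisation controls to 14 with poly-A controls. Msmo1, Nsdhl, Sc5d and Insig1, which lay just past 1.5-fold, fell below it with hybridisation controls, as did Abcg5 and Abcg8. With poly-A controls, Pmvk, Lss, Nr1h3 and Lcat rose past it. Because whole liver was measured, fewer cells of a type and less RNA per cell cannot be told apart.

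**Figure D1:**
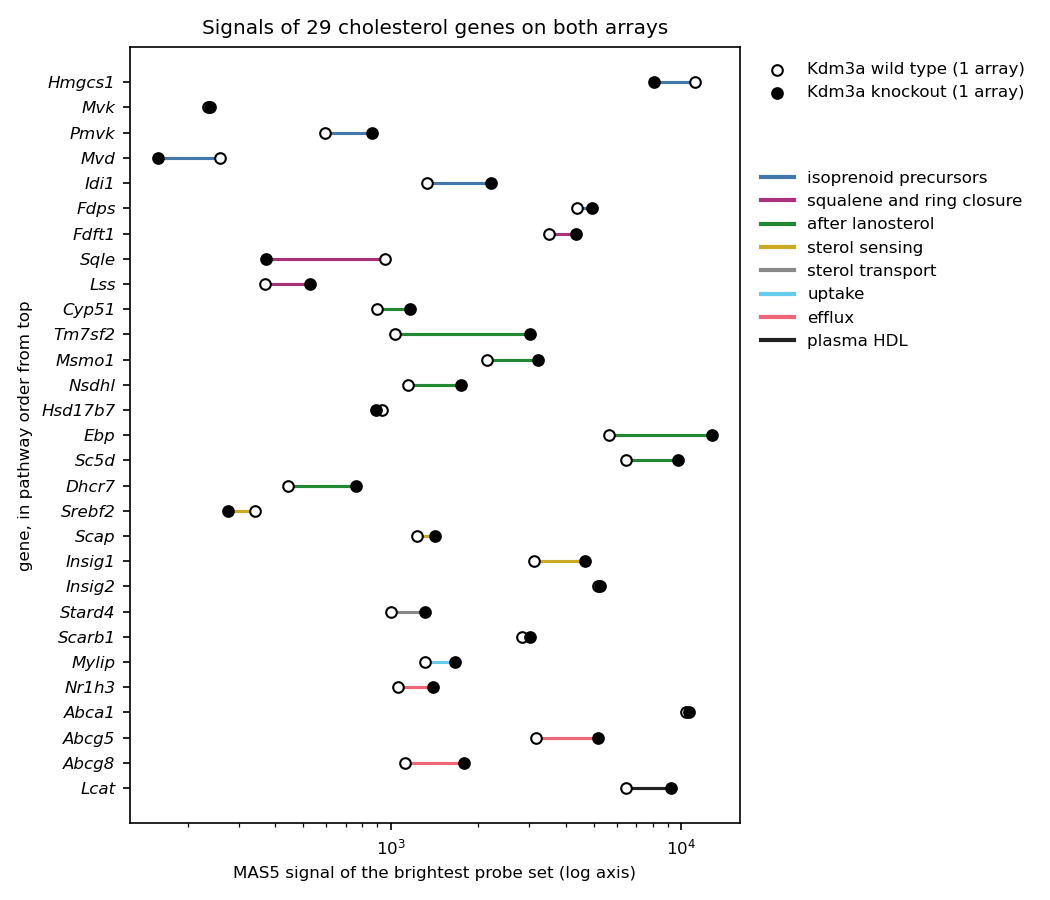
MAS5 signals (horizontal log axis, arbitrary units) of the brightest probe set of 29 cholesterol genes, in pathway order from the top; open circles are the wild-type array, filled circles the knockout array, and line colour gives the role. The filled circle lies to the right for 24 genes, and the longest lines belong to Tm7sf2 (1035 to 3015), Sqle (958 to 371) and Ebp (5642 to 12762).

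Among the enzymes that build isoprenoid units, ratios went both ways. Hmgcs1, the cytosolic synthase that makes HMG-CoA, gave a signal of 11144 in control liver and 8048 in knockout liver, for a log2 ratio of -0.47. It was thus lower in the knockout, and its 4 probe sets above the filter lay close together, from -0.47 to -0.36. Mvk, mevalonate kinase, had signals of 235 and 238, a ratio of 0.02. Pmvk, which adds the next phosphate, had 593 and 865, a ratio of 0.55. The kinases thus differed in ratio although they act in succession. Mvd, the decarboxylase that follows them, had 259 in control and 158 in knockout liver, 1.64-fold lower. Its next neighbour went the other way: Idi1, the isomerase that balances the pair of isoprenoid units, had 1329 and 2221, 1.67-fold higher. Both probe sets of Idi1 were higher, at 0.70 and 0.74. Fdps, farnesyl diphosphate synthase, had 4378 and 4919, a ratio of 0.17. Of these 6 genes, 1 was past 1.5-fold in each direction (11.1% of all genes were higher and 17.4% lower) and 0 were past 2-fold (12.8%). Their median was 0.09, or -0.04 when the arrays were scaled on their hybridisation controls.

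At the squalene steps, Sqle stood apart from its neighbours. Fdft1, squalene synthase, gave 3499 in control and 4339 in knockout liver, a ratio of 0.31. Sqle, which adds oxygen to squalene and is known as a rate-limiting step, had 958 and 371, so that the knockout signal was 38.7% of the wild-type signal. This was the lowest ratio of all 29 members, at -1.37, and 4.96% of all genes compared had a lower one. Lss, lanosterol synthase, which closes the rings, had 368 and 528, a ratio of 0.52. The step from Fdft1 to Sqle was a difference of -1.68 in log2 ratio, and the step from Sqle to Lss was 1.89. Sqle was read by 1 probe set, so no repeat within the arrays exists for it. The 3 probe sets of Lss were all positive but spread from 0.04 to 0.52.

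Of the enzymes after lanosterol, 7 of 8 had a positive ratio by their brightest probe sets, 8 when scaled by poly-A controls. Past 1.5-fold, 6 of 8 were higher (11.1% of all genes were). This fell to 3 of 8, namely Tm7sf2, Ebp and Dhcr7, when the arrays were centred on their medians or scaled by hybridisation controls. The share of all genes past 1.5-fold was not computed under those scalings. Cyp51, the demethylase that opens this part of the pathway, gave 900.4 in control and 1163 in knockout liver, a ratio of 0.37. Its other probe sets above the filter stood at -0.35 and -0.10, so the direction of Cyp51 depends on the probe set. Tm7sf2, the sterol reductase that acts on the product of Cyp51, had 1035 and 3015, which is 2.91-fold higher. This was the highest ratio of the 29, at 1.54, and 0.924% of all genes compared had a higher one. Msmo1 and Nsdhl, which act in succession to remove methyl groups from the sterol, had similar ratios of 0.59 and 0.60. Msmo1 had signals of 2146 and 3227. Nsdhl had signals of 1151 and 1741. Hsd17b7, the ketoreductase of the same complex, did not share this difference by its brightest probe set. It had 936 and 890.0, a ratio of -0.07, which turned positive with scaling on the poly-A controls. The other probe sets of Hsd17b7 above the filter stood at 0.30 and -0.10, so its direction too depends on the probe set.

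The last steps of the pathway were higher in the knockout array by their brightest probe sets. Ebp, the isomerase that shifts a bond in the sterol ring, had 5642 and 12762, which is 2.26-fold higher. Of the genes compared, 2.36% had a higher ratio. Sc5d, the desaturase that follows Ebp, had 6479.9 and 9753 by its brightest probe set, a ratio of 0.59. Its other probe sets above the filter went the other way, at -0.54 (signals of 1040.4 and 717) and -0.78 (signals of 146 and 84.99), so the direction of Sc5d depends on the probe set. Dhcr7, the last enzyme of the Kandutsch-Russell branch, had 444 and 759.7, 1.71-fold higher by its only probe set. The 8 enzymes had a median of 0.59, and a median between 0.46 and 0.78 under the 5 other scalings of the arrays.

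**Figure D2:**
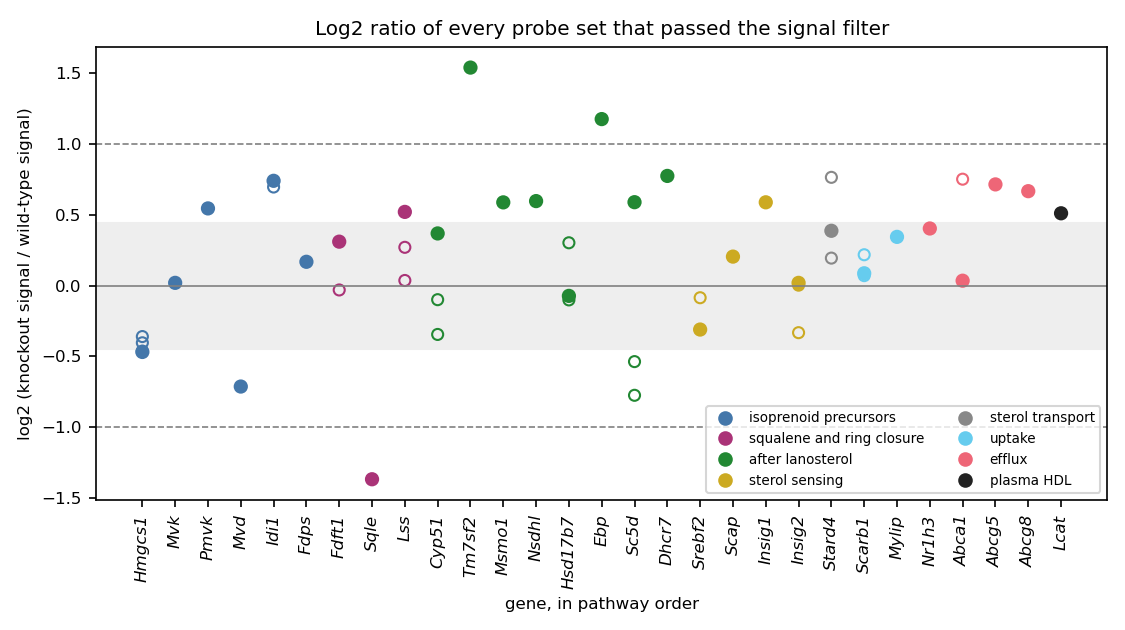
Log2 ratio of knockout over wild-type signal (vertical axis) for every probe set of the 29 genes that passed the signal filter, in pathway order; filled points are the brightest probe set, open points the others, and colour gives the role. The grey band is plus or minus 0.446, the SD between probe sets of the same gene, and dashed lines mark 2-fold; 2 filled points lie above and 1 below the dashed lines, and the points of Sc5d fall on both sides of 0.

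Of the sterol-sensing genes, Insig1 had the highest ratio. Srebf2, which encodes SREBP-2, gave 342 in control and 275 in knockout liver, a ratio of -0.31, and its other probe set stood at -0.09. Scap, the carrier of SREBP, had 1228 and 1416, a ratio of 0.20. These are small differences in opposite directions. Insig1, which retains SCAP in the endoplasmic reticulum and is itself a known SREBP target, had 3104 and 4669, 1.504-fold higher. Insig2, its relative known for a form specific to liver, had 5185 and 5255, a ratio of 0.02. The 3 probe sets of Insig2 ranged from -0.33 to 0.02, and its sign turned under 4 of the 5 other scalings. The ratio of Insig1 thus lay above that of each Insig2 probe set, and Insig1 was read by 1 probe set.

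For sterol transport and uptake, ratios were small and positive. Stard4, a soluble carrier that moves cholesterol between membranes, gave 1005 in control and 1315 in knockout liver, a ratio of 0.39, and its 3 probe sets were all positive, from 0.19 to 0.77. Scarb1, the receptor that takes cholesterol from HDL, had 2834 and 3010 (ratio 0.09), and 0.22 was the highest of its 3 probe sets. Its sign turned when the arrays were centred on their medians or scaled on hybridisation controls. Mylip, a ubiquitin ligase induced by LXR that sends lipoprotein receptors for degradation, had 1312 and 1666, a ratio of 0.34. It kept its sign under every scaling tried.

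The export pumps differed among themselves: the pair that works as a heterodimer was higher in the knockout array and Abca1 was near 0. Abcg5 and Abcg8 together encode the pump that moves sterols into bile. Abcg5 had signals of 3156 and 5183, 1.64-fold higher, and Abcg8 had 1125 and 1787, 1.59-fold higher. Their log2 ratios of 0.72 and 0.67 were close, and each gene was read by 1 probe set. Abca1, which loads cholesterol onto HDL, had 10358 and 10609 by its brightest probe set, a ratio of 0.03 that turned negative under 4 of the 5 other scalings. A dimmer probe set of Abca1, with signals of 179 and 302, gave 0.75, so the Abca1 value depends on the probe set. Nr1h3, which encodes LXR alpha, the sensor of oxysterols, had 1057 and 1398, a ratio of 0.40. Lcat, the plasma enzyme that esterifies cholesterol on HDL, had 6470.3 and 9222, a ratio of 0.51. Abcg5, Abcg8, Nr1h3 and Lcat kept a positive sign under each scaling.

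The spread between probe sets of a gene was the only repeat measurement, and it covers error within an array alone. Over the 4958 genes with several probe sets above the filter, its SD was 0.446 on the log2 scale. Of the 29 members, 13 had a ratio above this SD (16.1% of all genes had) and 3 were below its negative, namely Hmgcs1, Mvd and Sqle (22.4% of all genes were), and 13 lay within it. Among the members, 17 had 1 probe set above the filter and 12 had several. Of those 12, 7 had all probe sets on 1 side of 0 and 5 had probe sets in both directions: Fdft1, Cyp51, Hsd17b7, Sc5d and Insig2. The 12 had a median of 0.20 by their brightest and 0.0025 by their second brightest probe sets. The 17 genes with 1 probe set, among them Tm7sf2, Ebp and Sqle, had a median of 0.55.

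**Figure D3:**
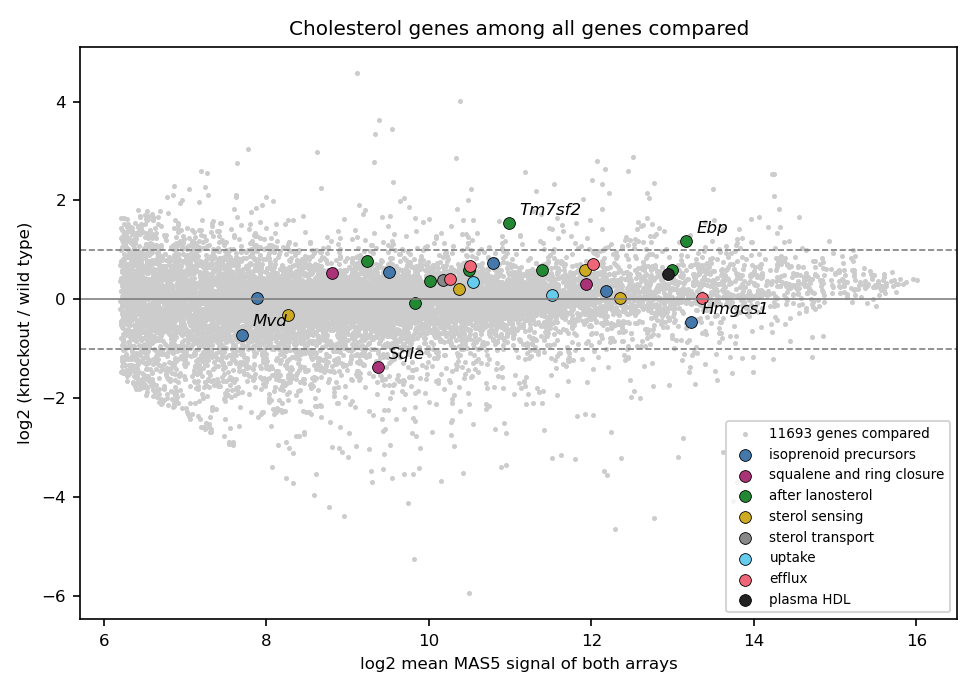
Log2 ratio of knockout over wild type (vertical axis) against log2 mean signal of both arrays (horizontal axis) for 11693 genes in grey and the 29 cholesterol genes in colours by role; dashed lines mark 2-fold. Most coloured points lie above 0, Tm7sf2 (1.54) and Ebp (1.18) above the upper dashed line, and Sqle (-1.37) below the lower one.

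The ratio depended on signal over all genes, and the members were bright. Of the 29, 12 were among the 2339 genes of highest mean signal, where the median ratio of all genes was 0.12 and 61.1% were positive; 11 of these 12 members were positive, with a median of 0.41. A further 10 fell in the next 2338 genes by signal, with a median of 0.40 against -0.03 for all genes there. The 3 dimmest members, Mvk, Mvd and Srebf2, had a median of -0.31 against -0.13 for the 2338 genes of similar signal. After loess, which removes a dependence on signal, the median of the 29 was 0.41 and 22 were positive. Over all genes the median was then -0.02 and 48.4% were positive.

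**Figure D4:**
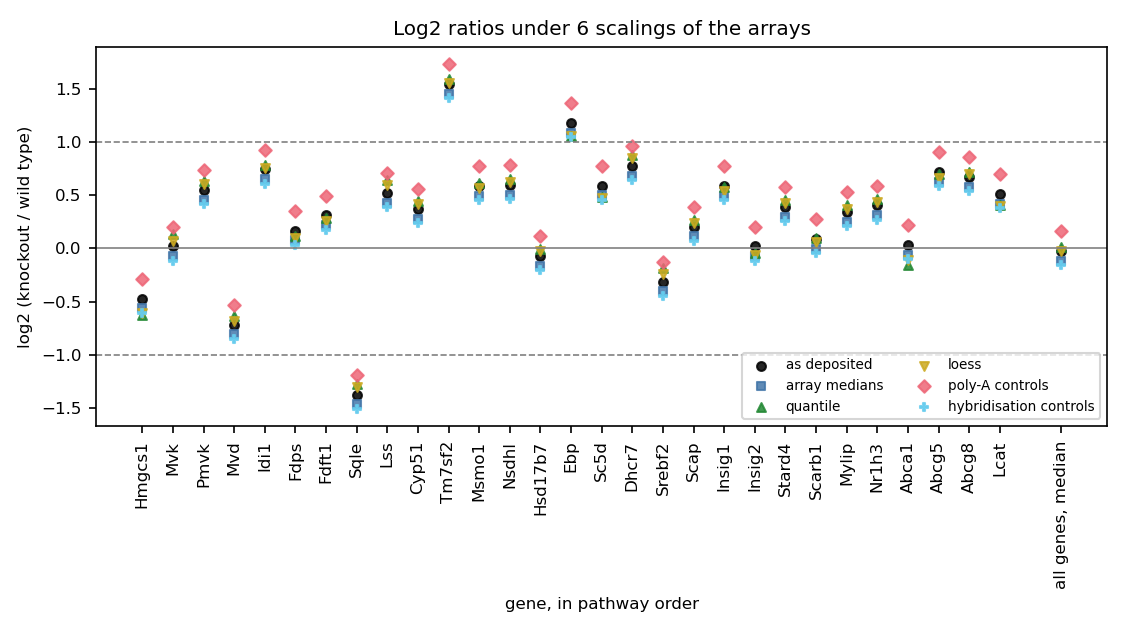
Log2 ratio of knockout over wild type (vertical axis) of each of the 29 genes as deposited and under 5 other scalings of the arrays, with the median over all genes at the right; symbols give the scaling and dashed lines mark 2-fold. Tm7sf2 stays between 1.41 and 1.73 and Sqle between -1.502 and -1.18 under the other scalings, and the median over all genes runs from -0.16 to 0.17.

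The scaling of the arrays moved the ratios. The median over all genes shifted by 0.19 when the arrays were scaled by poly-A controls and by -0.14 when scaled by hybridisation controls. Relative to that median, the median of the 29 was 0.41 in both cases, and 24 members lay above it. These values equal those of the deposited scaling by construction, since each of these scalings applies 1 factor to all genes of an array. Tm7sf2, Ebp and Sqle stayed past 2-fold under each of the 5 scalings, with Ebp lowest at 1.04. The sign was kept by 24 members under each scaling and turned under at least 1 for Mvk, Hsd17b7, Insig2, Scarb1 and Abca1.

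Other genes of sterol metabolism, on 7 lists of 71 genes in all, had a median ratio of -0.18, which was 0.0099 when scaled by poly-A controls and negative under the 4 other scalings. Of 63 compared, 1 was at least 2-fold higher (3.83% of all genes were), 5 were at least 2-fold lower (8.96% of all genes were) and 25 had a positive ratio. Genes that supply acetyl-CoA or acetoacetyl-CoA had 4 of 5 positive and a median of 0.30, or 3 of 5 and 0.17 with hybridisation controls and 4 of 5 and 0.13 after loess. Acss2, which makes acetyl-CoA from acetate, was highest (signals of 2680.0 and 4264, ratio 0.67), and Acly, which makes it from citrate, was lowest (5652 and 4067, ratio -0.47). Enzymes of the isoprenoid branch, which leads to prenylated proteins, ubiquinone and dolichol, had 5 of 9 positive, with a median of 0.07 that was negative when the arrays were centred on their medians or scaled on hybridisation controls. The farnesyltransferase subunit Fntb (0.47) and Pdss2 (0.40), of ubiquinone synthesis, were highest there. Srd5a3 (-0.59), of dolichol synthesis, and Pggt1b (-0.56), a subunit of a prenyltransferase, were lowest. The 4 probe sets of Pggt1b above the filter ranged from -1.01 to 0.08, so its direction depends on the probe set. The list for SREBP processing and the degradation of sterol-regulated proteins, which includes Srebf1 itself, had 4 of 12 positive. Its median was -0.17, or 0.01 when scaled by poly-A controls. Srebf1 (0.43), which encodes the SREBP known for fatty acid synthesis, was highest there and the protease Mbtps2 (-0.42) was lowest.

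Genes that move or store sterol inside the cell had 5 of 16 positive (47.8% of all genes were) and a median of -0.21. Stard5 (0.44), a relative of Stard4, and the peroxisomal sterol carrier gene Scp2 (0.31) were highest. Gramd1b was at least 2.56-fold lower, with 119 in control liver and a value under the floor in knockout liver, and Osbpl3 (-0.82) was the next lowest. LXR partners and HDL genes had 3 of 7 positive and a median of -0.19. Nr0b2 (0.68), a repressor of bile acid synthesis, was highest, and Abcg1 (-0.88), an LXR target that exports cholesterol from macrophages, and Pltp (-0.65), the phospholipid transfer protein of HDL, were lowest. The export genes thus went in different directions: Abcg1 had signals of 869 and 473, against 3156 and 5183 for Abcg5. Receptors and partners of endocytosis had 1 of 8 positive and 3 at least 2-fold lower (8.96% of all genes were). When scaled by poly-A controls, 2 were at least 2-fold lower (6.61% of all genes were). The macrophage scavenger receptor Msr1 (-1.51) and the caveolin Cav1 (-1.34) were lowest, and Lrp1 (0.16) was highest. Oxysterol enzymes had 1 of 6 at least 2-fold higher, Cyp7b1 (2623 and 10828), against 3.83% of all genes. They had 1 at least 2-fold lower, Ch25h (169 and 73.0), which makes an oxysterol in immune cells, against 8.96% of all genes. With scaling on the poly-A controls 2 were higher (6.10% of all genes were).

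**Figure D5:**
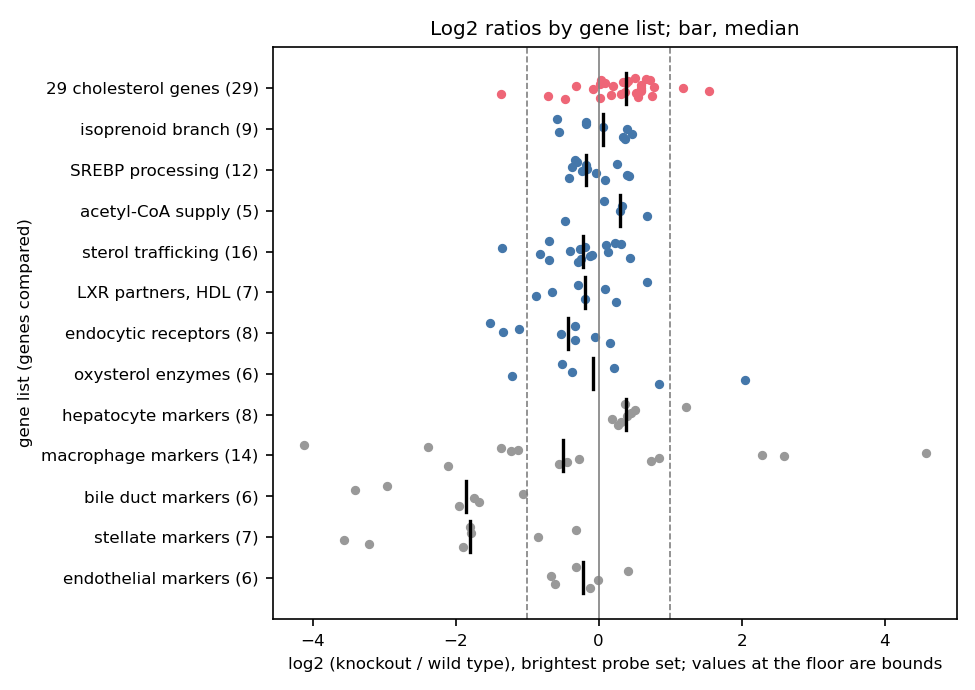
Log2 ratio of knockout over wild type (horizontal axis) of each gene compared in the cholesterol list (red), 7 lists of other sterol genes (blue) and 5 lists of cell type markers (grey); vertical bars are medians and dashed lines mark 2-fold. The medians are 0.39 for the 29 cholesterol genes, 0.39 for hepatocyte markers, -0.50 for macrophage markers, -1.85 for bile duct markers and -1.79 for stellate cell markers.

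Markers of cell types moved beside these values. All 8 hepatocyte markers were positive (47.8% of all genes were), 7 after quantile normalization and 6 after loess. Their median was 0.39, with summed signals of 318659 in control and 417871 in knockout liver. Tat (1.22) was highest and Ahsg (0.18) lowest. After quantile normalization their median was 0.06 and after loess 0.09; both methods act on signal, and these markers lie near the top of the signal range. Of 14 macrophage markers, 6 were at least 2-fold lower (8.96% of all genes were) and 3 at least 2-fold higher (3.83%), with summed signals of 51957 and 36486. Gpnmb (-4.12) was lowest, and Cd163, under the floor in control liver, was at least 23.9-fold higher. All 6 bile duct markers lay at least 2-fold below control by their brightest probe sets (8.96% of all genes did), and 5 when scaled by poly-A controls. Their summed signals were 5992 and 880.2. The probe sets above the filter spanned -1.75 to -0.08 for Epcam and -2.96 to 0.69 for Tspan8. The direction of Tspan8 thus depends on the probe set. All those of the other bile duct markers were at least 2-fold lower. Of 7 stellate cell markers, 5 were at least 2-fold lower (8.96% of all genes were), with summed signals of 32197 and 13790. Of 6 endothelial markers, 0 were past 2-fold (12.8% of all genes were), with summed signals of 7323 and 6966. The part of cell composition in any ratio given here was not tested.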

How the data were processed

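Total RNA of liver (250 ng) was turned into biotin-labelled cRNA for Affymetrix arrays, per the labels' protocols. The deposited values are probe-set intensities on a linear scale, made with MAS5 per the submitters' processing notes; detection calls and settings are not given there. The mean after trimming was 500.004 on both arrays, so they had been scaled to a common level. Of 45101 probe sets, 64 were controls, 34945 were assigned to 1 gene by the platform annotation, 932 to several and 9160 to none listed; the last 2 classes were not used. Names were updated through RefSeq gene identifiers for 34741 of them.

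Values below the 40th percentile (46.5) were set to that level, which makes such a ratio a bound. Probe sets with a mean signal of at least 73.7, the median of means, were kept, which left 11693 genes by their brightest probe set. The members and lists were chosen with earlier results of these data known. The genes named are all members, Kdm3a, up to 2 highest and 2 lowest genes of each further list, and Epcam for the spread of its probe sets. Calculations used Python 3.11.15, pandas 2.3.3 and statsmodels 0.14.6 (loess span 0.3) and were tested on simulated data. Alternatives covered scaling, floor, filter, choice of probe set and size rule.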

Additional observations from a re-analysis of the deposited data

How the results depend on the processing

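With 1 array per group no replicate could be left out. No paired analysis was possible because each group held 1 array. The counts of 2 members at least 2-fold higher and 1 lower were the same under all 5 scalings, all floors and filters tried, the mean of probe sets and the removal of probe sets by name ending. With the second brightest probe set, available for 12 members, both counts were 0 and the median was 0.0025; Tm7sf2, Ebp and Sqle have no second probe set above the filter. At 1.5-fold the counts were 10 higher (11.1% of all genes were) and 2 lower (17.4%), and at 3-fold both were 0. Scalings were combined with 1.5-fold after seeing the data. Then 5 were higher when centred on array medians, 4 with hybridisation controls and 14 with poly-A controls. With poly-A controls 1 was lower, and the other lower counts were 2 or 3. The share of all genes past 1.5-fold was not computed under these scalings. The median of 0.39 became 0.57 when scaled by poly-A controls and 0.25 by hybridisation controls, in step with all genes. Of 354 values of single members under alternatives, 348 moved by no more than the SD between probe sets and 6 by more: Lss and Sc5d (2 each), Cyp51 and Abca1, all under another choice of probe set. Many of the 348 could not have moved, so this count is no measure of stability. The floors and filters left every member value they kept unchanged. Scaling on medians or controls shifts all members by the same amount, which was below this SD. With the second brightest probe set, 4 of 12 moved. Sc5d became -0.24 by the mean of its probe sets. Signal over background limits Mvk, Mvd and Srebf2 most, since their signals were lowest among the members.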

Other observations

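The dimmer probe sets that did not pass the filter add values for some members. Mvk had a further probe set at 124 in control liver and under the floor in knockout liver, at least 2.67-fold lower, whereas its brightest probe set stood at 0.02. Mvd had a further probe set at 108 and below the floor, at least 2.33-fold lower, in the same direction as its brightest. A further Abca1 probe set had 84.7 and a value below the floor, at least 1.82-fold lower, opposite to the dimmer of its probe sets above the filter. Of the 60 probe sets of the members, 50 passed the filter.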
